A study of Caenorhabditis elegans with 6 samples.

Results

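Neuropeptide precursor genes of the flp and nlp families were described on 6 Affymetrix arrays of whole Caenorhabditis elegans larvae, 3 from wild-type and 3 from zip-3(gk3164). Members were all probe sets that the platform annotation gives to exactly 1 gene whose symbol starts with flp or nlp. The rule left out nlp-27, nlp-28, nlp-29, nlp-30, nlp-31 and nlp-34, most of which are known as epidermal antimicrobial peptide genes. It gave 89 probe sets for 78 genes, 25 flp and 53 nlp, out of 22548 probe sets and 17118 named genes. Another 2 probe sets annotated with an nlp gene together with other genes were not used. The filter on signal, a geometric mean of 68.7 or more over the 6 arrays, kept 65 member probe sets for 57 genes, 28 probe sets for 22 flp genes and 37 for 35 nlp genes. A whole larva mixes RNA from every tissue, so fewer cells of a type and less RNA per cell cannot be told apart.

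Neuropeptide precursors are made as longer proteins that enter dense core vesicles, where proteases and amidating enzymes cut out short peptides for release. The flp genes encode FMRFamide-related peptides, and nlp is a collective name for the precursors that are neither FMRFamide-related nor insulin-like. Most act on G protein-coupled receptors in neurons, muscle or gut, and control movement, egg laying, feeding and the sleep-like quiescence around each moult. Most are made in neurons, while nlp-40 is known from the intestine and several glycine-rich nlp genes from the epidermis.

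Both genotypes were fed bacteria carrying the control RNAi construct, grown in liquid after bleach synchronization and collected at the L4 larval stage. zip-3 encodes a bZIP transcription factor, known as a negative regulator of the response to unfolded proteins in mitochondria. The only labelled difference between the groups is the gk3164 allele, and nothing in the labels places either zip-3 probe set within or outside the altered stretch. The brighter zip-3 probe set read 1203.9, 1112.7 and 939.6 in wild-type and 384.6, 458.7 and 233.8 in the mutant, with no overlap and a log2 difference of -1.64 that missed the threshold (limma adjusted p = 0.0717). The dimmer one read 116.8, 84.5 and 71.9 against 64.4, 74.9 and 50.8, with overlap (-0.51, limma adjusted p = 0.393), and their average gave -1.08. Values are MAS5 signals on a linear scale. Across the 13529 tested probe sets, mutant array 3 correlated with the wild-type arrays at 0.943 to 0.958 and with mutant arrays 1 and 2 at 0.925 and 0.89, so it stood closer to wild-type than to its own group. The labels and files do not settle what sets mutant array 3 apart, and every mutant mean includes it. Values without it are given where a call rests on it, and for some medians and members where none does.

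No flp or nlp precursor passed the threshold between genotypes. Of the 65 tested member probe sets 0 had a limma adjusted p under 0.05, against 0.118% of all tested probe sets called higher and 0.0148% called lower. The limma adjusted p of members lay between 0.157 and 0.982. At an unadjusted p under 0.05, 6 member probe sets were higher and 2 lower, or 9.23% and 3.08%, against 10.1% and 9.27% of all tested probe sets. The mutant arrays lay all above the wild-type arrays for 6 members, or 9.23%, where 14.1% of all probe sets did so. They lay all below for 2 members, or 3.08%, against 8.8% of all probe sets. By each of these counts the share of members was no larger than the share over the whole table. Among the higher members, nlp-101 and the dimmer probe sets of nlp-99 and flp-8 passed the signal filter only through their mutant signals.

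The differences themselves were mostly small. The median log2 difference, mutant minus wild-type, was 0.12 over the 65 members and 0.04 over all tested probe sets. It was 0.11 over the 28 flp probe sets and 0.19 over the 37 nlp probe sets. Without mutant array 3 the flp median turned to -0.13, while the nlp median was 0.17 and the median of all members -0.01. A positive difference was seen in 41 members, or 63.1%, against 54.2% of all probe sets. Without mutant array 3 it was seen in 32 members, or 49.2%, against 54.5%. The 95% interval of the difference lay wholly within 1 log2 unit of zero for 38 members, or 58.5%, where 55.4% of all probe sets did so. For those 38 probe sets, a change of 2-fold or more between genotypes lay outside the interval. The remaining intervals reached past 2-fold in at least 1 direction. Of these, 8 left out zero, those of the members past an unadjusted p of 0.05, and the others held both zero and a 2-fold change.

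**Figure D1:**
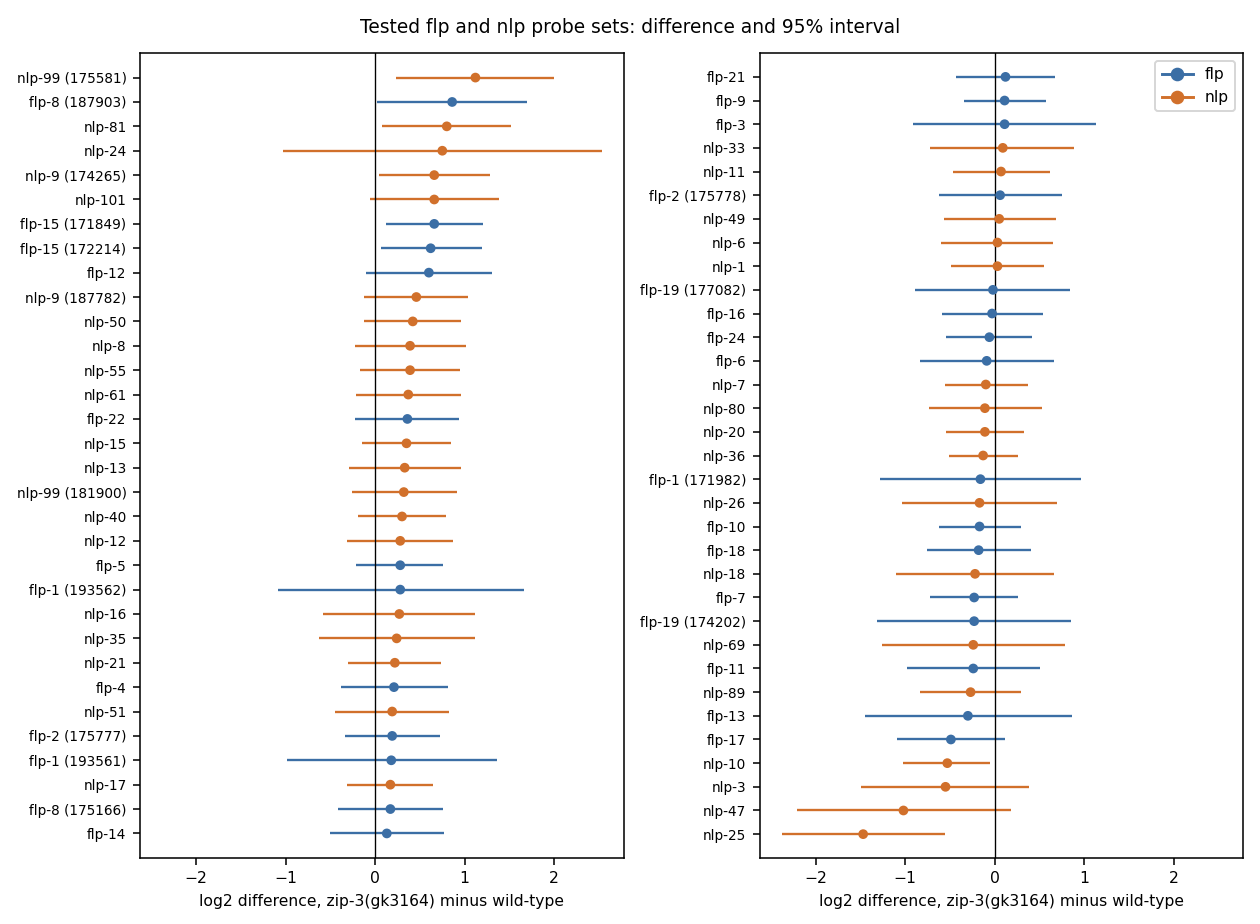
Log2 difference of every tested flp (blue) and nlp (orange) probe set, mutant minus wild-type, sorted by size; points are estimates and bars are 95% intervals from limma, and numbers in brackets tell apart probe sets of 1 gene. nlp-25 stands lowest at -1.47 and a probe set of nlp-99 highest at 1.12, and most bars cross zero.

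The member with the largest difference in either direction was nlp-25, which belongs to the glycine-rich nlp genes. Its signal was 1070.8, 880.1 and 1352.2 in wild-type and 239.3, 358.0 and 703.5 in the mutant. All mutant arrays lay below all wild-type arrays, and mutant array 3 was nearest to wild-type. The log2 difference was -1.47 ± 0.39 (SE), a 2.77-fold lower geometric mean (limma adjusted p = 0.157). For nlp-25 by itself an exact two-sided permutation test gave p = 0.10, and groups of 3 cannot go lower. Without mutant array 3, nlp-25 fell by 1.89 ± 0.27 and passed (limma adjusted p = 0.00602).

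nlp-47, a precursor related to gonadotropin-releasing and adipokinetic hormones, split the mutant arrays. It read 497.3, 325.5 and 332.0 in wild-type and 128.3, 113.7 and 442.7 in the mutant, so mutant array 3 lay inside the wild-type range while the other mutant arrays lay far below it. The log2 difference over all arrays was -1.02 ± 0.51 (SE), and it did not pass (limma adjusted p = 0.323). Without mutant array 3, nlp-47 fell by 1.64 ± 0.26 (limma adjusted p = 0.00845), and without mutant array 2 it stood at -0.66 and did not pass. nlp-25 and nlp-47 were the 2 members called in that fit, both lower, or 3.08% of members. In the same fit 10.1% of all probe sets were called lower and 5.96% higher, and 0 members were higher. nlp-47, like nlp-81, nlp-99, flp-8 and the members named for their pattern among arrays, was singled out after its values were seen.

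nlp-10 was the other member with no overlap in the lower direction. It read 687.9, 759.4 and 902.9 in wild-type and 513.6, 463.6 and 652.5 in the mutant. The log2 difference was -0.53 ± 0.21 (SE), or 1.45-fold (limma adjusted p = 0.227). The lowest wild-type value, 687.9, was close to the highest mutant value, 652.5.

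Among members higher in the mutant, flp-15, whose peptides activate the receptor NPR-3, had 2 tested probe sets and no overlap in either. Its probe set with the highest mean read 395.1, 468.4 and 583.6 in wild-type and 950.5, 659.4 and 629.7 in the mutant. A second flp-15 probe set read 296.2, 406.0 and 448.4 against 712.5, 573.4 and 520.9. Wild-type array 3 lay nearest to the mutant arrays in both, and the log2 differences were 0.62 ± 0.24 and 0.66 ± 0.23 (limma adjusted p = 0.226 and 0.202). Both probe sets carry a suffix for sequence shared with other transcripts, so they need not be separate measurements. The remaining flp-15 probe set was below the signal filter, at 21 to 68.5 on all arrays.

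nlp-101 and nlp-15 also had all mutant arrays above all wild-type arrays. nlp-101 read 68.5, 54.8 and 77.4 in wild-type and 143.8, 80.3 and 98.6 in the mutant, and its log2 difference was 0.66 ± 0.31 (SE). The wild-type geometric mean of nlp-101 lay below the filter at 68.7, so it was tested only through its mutant signals. nlp-15, an orcokinin-like precursor, read 143.3, 138.3 and 149.1 against 169.0, 171.4 and 210.7, with a log2 difference of 0.35 ± 0.21 (SE). Mutant array 2 of nlp-101 and mutant array 1 of nlp-15 lay nearest to wild-type, and neither gene passed (limma adjusted p = 0.295 and 0.41).

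The other members past an unadjusted p of 0.05 were nlp-81 and 1 of the 2 tested probe sets each of nlp-9, nlp-99 and flp-8. nlp-81 read 69.8, 65 and 113.7 in wild-type and 165.3, 147.0 and 112.9 in the mutant (0.80 ± 0.31 SE), with mutant array 3 just below wild-type array 3. The dimmer nlp-99 probe set read 74.8, 39.4 and 106.3 against 147.8, 161.2 and 133.8 (1.12 ± 0.38 SE), the largest positive difference of any member probe set. Its wild-type geometric mean lay below the filter at 68.7, so it was tested only through its mutant signals. The brighter nlp-99 probe set gave 0.32 ± 0.25 with overlapping groups, so the size of the nlp-99 difference depends on the probe set. For flp-8 the dimmer probe set gave 0.86 ± 0.36 and the brighter 0.17 ± 0.25, and for nlp-9 they gave 0.66 ± 0.26 and 0.46 ± 0.25. The dimmer flp-8 probe set also passed the filter only through its mutant signals. The dimmer nlp-9 probe set read 181.9, 293.0 and 292.6 in wild-type and 423.1, 324.7 and 448.4 in the mutant, with no overlap. The lowest limma adjusted p among these was 0.193, for nlp-99.

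**Figure D2:**
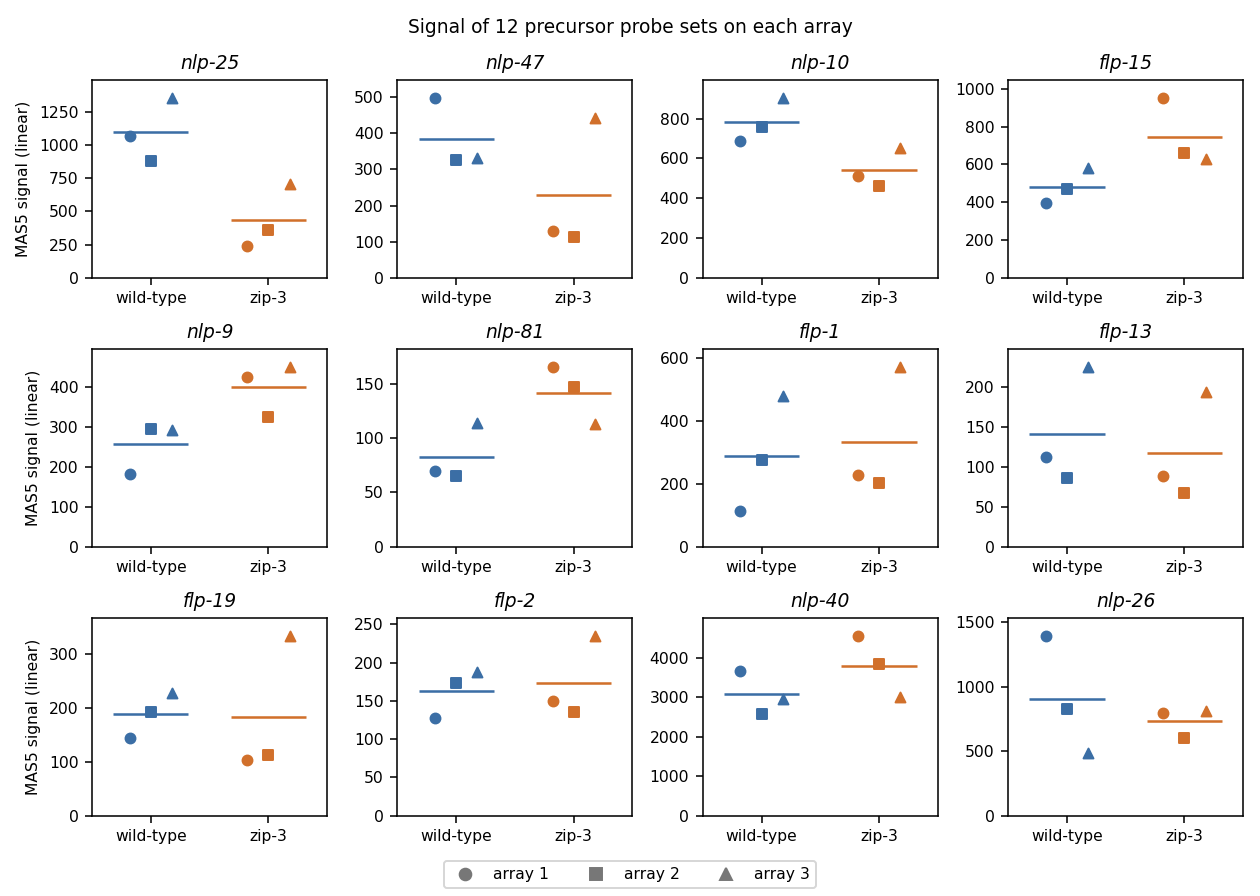
Linear MAS5 signal of 12 precursor probe sets on each array, with circles, squares and triangles for arrays 1, 2 and 3 of a genotype and a line for the mean of 3 arrays; each panel has its own axis from 0, nlp-9 is shown by its dimmer probe set and flp-1 by its second brightest. nlp-25 and nlp-10 are lower and flp-15 higher in every mutant array, while flp-1, flp-13 and flp-19 differ more within a genotype than between genotypes.

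Precursors known for roles in movement and egg laying did not shift together over all 6 arrays. The 12 tested probe sets of the 9 genes listed for these roles had 6 positive and 6 negative differences and a median of -0.02. The highest of them, and the 1 past an unadjusted p of 0.05, was the dimmer nlp-9 probe set described above, at 0.66 ± 0.26. With mutant array 3 left out, the median of the 12 was -0.19 and 3 were positive, or 25%, against 54.5% of all probe sets. In that fit 0 of the 12 passed the adjusted threshold. flp-1, made by the AVK interneurons and needed for normal locomotion, has 3 tested probe sets. The brightest read 194.7, 259.6 and 551.7 in wild-type and 211.9, 195.2 and 479.8 in the mutant. The second read 112.4, 274.9 and 478.7 against 229.6, 203.0 and 571.1, and the dimmest 84.2, 200.8 and 272.2 against 131.2, 162.0 and 317.9. All 3 were highest in array 3 of each genotype, and the wild-type arrays differed by 2.83-fold to 4.26-fold among themselves. The flp-1 log2 differences between genotypes were -0.16 ± 0.48, 0.28 ± 0.59 and 0.18 ± 0.50 (SE), with limma adjusted p-values of 0.84 to 0.889.

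Among the other precursors of these roles, flp-10 and flp-17 encode ligands of EGL-6, a receptor that inhibits egg laying. flp-10 read 504.5, 491.0 and 620.3 in wild-type and 538.4, 436.8 and 463.3 in the mutant, and flp-17 read 181.3, 210.0 and 167.8 against 125.3, 106.7 and 174.2. Their log2 differences were -0.17 ± 0.19 and -0.49 ± 0.26 (SE), and for flp-17 mutant array 3 lay inside the wild-type range. nlp-3, which acts with serotonin in the egg-laying neurons, stood at -0.55 ± 0.40 with overlapping groups. flp-18, one of the precursors whose peptides act on NPR-1, stood at -0.18 ± 0.25. nlp-12, the cholecystokinin-like precursor of the DVA neuron, read 489.7, 700.1 and 727.3 against 990.6, 740.0 and 604.9, a log2 difference of 0.28 ± 0.26. nlp-7 stood at -0.10 ± 0.20 and nlp-49, whose peptide acts on the stress-related receptor SEB-3, at 0.05 ± 0.27.

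Precursors linked to lethargus and sleep did not pass the threshold. Of the 6 genes listed, 4 were tested, with 1 positive and 3 negative differences and a median of -0.15. Without mutant array 3 this median was -0.37, with flp-11 at -0.53 and flp-13 at -0.74. Neither gene passed in that fit (limma adjusted p = 0.216 and 0.29). flp-11, the main sleep-promoting precursor of the RIS neuron, read 193.5, 269.9 and 308.6 in wild-type and 180.0, 170.3 and 320.5 in the mutant. Its log2 difference was -0.24 ± 0.32 (SE). flp-13, a precursor of the ALA neuron that acts in stress-induced sleep, read 112.5, 86.2 and 224.8 against 89.1, 67.9 and 194.0. The flp-13 log2 difference over all arrays was -0.30 ± 0.49 (SE; limma adjusted p = 0.789), and it was 0.10 without wild-type array 3. Array 3 was the highest of both genotypes for flp-11 and flp-13. flp-24 and nlp-8, also ALA precursors, stood at -0.06 ± 0.21 and 0.39 ± 0.27. nlp-22, a RIA neuron precursor whose transcript is known to cycle with the moult, read only 6.4 to 35.3 on the 6 arrays and was not tested. nlp-14, another orcokinin-like precursor, read 48.1 to 60.1 on 5 arrays and 5.6 on mutant array 2, and was not tested either.

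flp-2, linked in other work to mitochondrial stress signalling between tissues, showed no detectable difference. Its brighter probe set read 127.9, 173.2 and 188.1 in wild-type and 149.4, 135.6 and 234.7 in the mutant, and the other read 130.4, 136.6 and 165.1 against 160.9, 146.8 and 185.6. The log2 differences were 0.06 ± 0.29 and 0.19 ± 0.23 (SE). The 95% intervals ran from -0.62 to 0.75 and from -0.34 to 0.72, so a 2-fold change of flp-2 lay outside both. flp-21, the other precursor acting on NPR-1, stood at 0.12 ± 0.24. nlp-40, an intestinal precursor that times the enteric muscle contraction of defecation, read 3665.0, 2582.3 and 2959.7 against 4539.7, 3830.9 and 3004.8, a difference of 0.30 ± 0.21. nlp-24, an opioid-like precursor, had the widest interval of all members, from -1.03 to 2.53. It read 150, 155.7 and 22.1 in wild-type and 85.4, 212.8 and 134.8 in the mutant, so wild-type array 3 stood far below every other array.

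The glycine-rich nlp genes that remained in the set did not move as one. Of 5 genes listed, 4 were tested, and nlp-25 was the only one of the 4 whose genotypes did not overlap. nlp-24, described above, stood furthest the other way, at 0.75 ± 0.76. nlp-33 read 1615.0, 2455.2 and 3893.1 in wild-type and 1918.7, 3056.4 and 3143.3 in the mutant, a difference of 0.09 ± 0.34. nlp-26, which lies next to nlp-25 in the gene order with 1 coding gene between, read 1392.0, 828.9 and 484.6 against 799.1, 600.5 and 813.7, a difference of -0.17 ± 0.37. nlp-32 read 6.7 to 48.7 and was not tested. Among other neighbouring pairs with both genes tested, adjacent nlp-9 and nlp-13 stood at 0.46 ± 0.25 and 0.33 ± 0.27 by their brightest probe sets, and adjacent flp-3 and flp-2 at 0.11 ± 0.44 and 0.06 ± 0.29.

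The remaining tested members had overlapping groups. flp-12 stood highest among them, at 380.3, 364.8 and 629.8 in wild-type and 781.9, 484.2 and 807.8 in the mutant, with a log2 difference of 0.60 ± 0.30 (SE; limma adjusted p = 0.321). flp-14 read 143.7, 178.2 and 114.1 against 129.3, 195.3 and 151.0, with a log2 difference of 0.13 ± 0.27 (SE). For flp-4, flp-5, flp-6, flp-7, flp-9, flp-16 and flp-22 the log2 differences lay between -0.23 and 0.36. For nlp-1, nlp-6, nlp-11, nlp-16, nlp-17, nlp-20, nlp-21, nlp-35, nlp-50, nlp-51, nlp-55, nlp-61, nlp-69, nlp-80 and nlp-89 they lay between -0.27, for nlp-89, and 0.42, for nlp-50.

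What the members shared was their order among arrays of 1 genotype rather than a difference between genotypes. Pan-neuronal, pharynx and moulting lists, described below, had the same wild-type order. Wild-type array 1 was the lowest of the wild-type arrays for 45 of 65 member probe sets, or 69.2%, against 29.9% of all tested probe sets. Wild-type array 3 was the highest for 43, or 66.2%, against 33.2%. Both held together for 32 members, where 18.2% of all probe sets met both. Among the mutant arrays, array 3 was highest for 36 members, or 55.4%, against 42% of all probe sets, and array 2 lowest for 35, or 53.8%, against 39%. All of wild-type array 1 lowest, wild-type array 3 highest and mutant array 3 highest applied to 20 members, and to 5% of all probe sets. These 20 comprised the 3 probe sets of flp-1, both of flp-2 and of flp-19, and 1 each of flp-3, flp-11, flp-18, flp-22, nlp-7, nlp-10, nlp-11, nlp-13, nlp-18, nlp-33, nlp-35, nlp-55 and nlp-80. The array patterns were noticed in these data, members are not independent of each other, and no test was made of them.

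**Figure D3:**
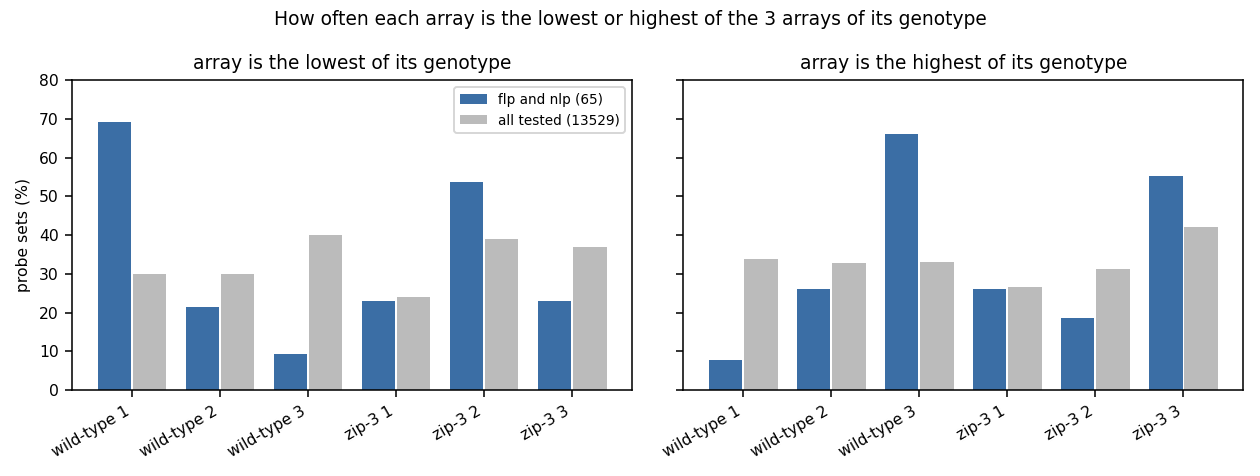
Percent of probe sets for which each array was the lowest (left) or the highest (right) of the 3 arrays of its genotype, for 65 flp and nlp probe sets (blue) and all 13529 tested (grey). Wild-type array 1 is lowest for 69.2% of members and wild-type array 3 highest for 66.2%, against 29.9% and 33.2% of all probe sets.

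Wild-type array 1 was the highest of its genotype for 5 members, or 7.69%, against 33.9% of all tested probe sets. These were flp-24, nlp-26, nlp-36, nlp-40 and nlp-47, and for flp-24 and nlp-26 wild-type array 3 was also the lowest. nlp-36 read 3108.5, 2449.0 and 2871.6 in wild-type and 2600.5, 2802.0 and 2297.1 in the mutant. In the mutant group, flp-1, flp-13, flp-19, nlp-18 and nlp-47 had a probe set at least 2-fold higher in array 3 than in both other arrays. For flp-19 this probe set read 104.5, 113.0 and 334.0, with wild-type at 144.1, 193.9 and 227.6. For nlp-18 it read 165.6, 156.2 and 388.9, with wild-type at 209.1, 256.8 and 296.2. In total 6 member probe sets, or 9.23%, met this 2-fold mark, against 7.04% of all probe sets.

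The spread within a genotype was as large as the differences between genotypes for most members. The log2 difference exceeded the wider of the 2 within-genotype ranges in 4 members, or 6.15%, against 11.8% of all probe sets. These were both flp-15 probe sets, nlp-15 and nlp-10. The wild-type arrays alone differed by 2-fold or more in 10 member probe sets, or 15.4%, against 11.1% of all. They belonged to flp-1, flp-3, flp-13, nlp-24, nlp-26, nlp-33, nlp-69 and nlp-99.

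Medians on each array showed the same arrangement. Relative to the wild-type mean, the members had a median log2 signal of -0.23, 0.06 and 0.22 on wild-type arrays 1, 2 and 3 and of 0.01, 0.00 and 0.37 on mutant arrays 1, 2 and 3. The flp probe sets stood at -0.29, 0.10 and 0.23, then -0.05, -0.16 and 0.43. The nlp probe sets stood at -0.21, 0.01 and 0.22, then 0.09, 0.07 and 0.32. Over all tested probe sets the array medians stayed between -0.02 and 0.06. Mutant arrays 1 and 2 thus lay inside the wild-type range of the members, and mutant array 3 lay above it.

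**Figure D4:**
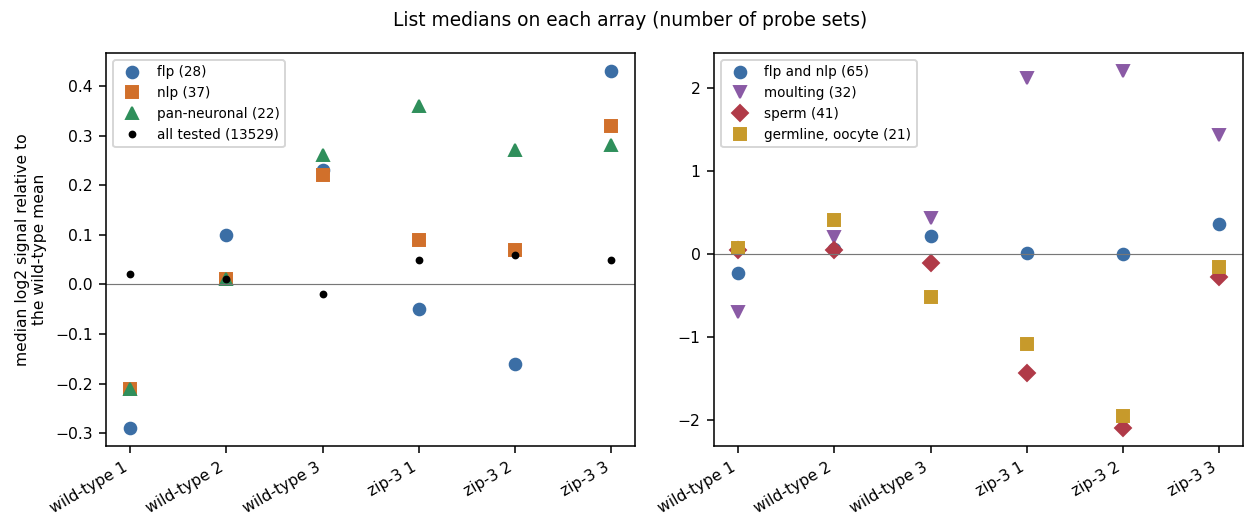
Median log2 signal of gene lists on each array relative to the mean of the wild-type arrays, with the number of tested probe sets in brackets; the left panel shows flp, nlp, pan-neuronal and all probe sets, and the right panel, on a wider axis, flp and nlp beside moulting, sperm and germline lists. The flp and nlp medians are lowest on wild-type array 1 and highest on mutant array 3, and their range is small beside that of the moulting and sperm lists.

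Markers expressed in all neurons had the array order of the members within wild-type, and all their mutant medians lay at or above the highest wild-type one. For 22 tested probe sets of 13 pan-neuronal genes, the array medians were -0.21, 0.01 and 0.26 in wild-type and 0.36, 0.27 and 0.28 in the mutant. Of these, 16 were lowest on wild-type array 1 and 18 highest on wild-type array 3. Their median difference between genotypes was 0.27, with 21 of 22 positive, 4 past an unadjusted p of 0.05 and 0 past the adjusted threshold. The highest moderated statistics belonged to syd-2, a presynaptic scaffold gene, at 0.89 ± 0.30, and unc-13, which primes synaptic vesicles, at 0.60 ± 0.20 (SE). Markers of the pharynx had array medians of -0.57, 0.04 and 0.54 in wild-type and -0.72, -0.30 and 0.14 in the mutant, and those of body wall muscle -0.16, -0.18 and 0.35, then 0.00, 0.17 and 0.51. Of 9 tested pharynx probe sets, 9 were lowest on wild-type array 1 and 8 highest on wild-type array 3. Genes of the moulting cycle and epidermal matrix stood at -0.70, 0.21 and 0.44, then 2.13, 2.21 and 1.44, with 6 of 32 probe sets higher at the adjusted threshold. Of these 32, 26 were lowest on wild-type array 1 and 20 highest on wild-type array 3. Leaving out any 1 array other than mutant array 3 left 0 calls over all probe sets. Sperm markers stood at 0.05, 0.05 and -0.10, then -1.43, -2.10 and -0.28. Germline and oocyte markers stood at 0.07, 0.41 and -0.52, then -1.08, -1.95 and -0.16. The part of these lists in the values of the members was not tested.

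Genes for peptide processing and vesicle release did not pass either. Of 26 tested probe sets for 12 processing genes, 0 passed the adjusted threshold, 3 were higher at an unadjusted p under 0.05, and the median difference was 0.06. egl-3, the proprotein convertase that cuts most precursors, read 999.2, 1063.2 and 1503.4 in wild-type and 1210.7, 1192.6 and 1492.2 in the mutant, which gave a log2 difference of 0.14 ± 0.21 (SE). egl-21, the carboxypeptidase that trims the cut ends, stood at 0.07 ± 0.16. kpc-1, a furin-like convertase, read 327.0, 422.2 and 312.7 against 811.4, 530.0 and 651.5, a difference of 0.90 ± 0.23 with no overlap (limma adjusted p = 0.155), but 0.52 when its probe sets were averaged. cpd-1, a carboxypeptidase D gene, stood at 1.07 ± 0.34 and pamn-1, an amidating enzyme gene, at 0.73 ± 0.26, or 0.34 with its probe sets averaged. Without mutant array 3, cpd-1 rose by 1.39 and pamn-1 by 0.95 (limma adjusted p = 0.0162 and 0.0300). Without mutant array 1 they stood at 0.83 and 0.60, and neither passed (limma adjusted p = 0.455 and 0.476). cpd-2 went the other way, at -0.57 ± 0.39 over all arrays and -0.95 without mutant array 3 (limma adjusted p = 0.456 and 0.0783). Of the 26 processing probe sets, 15 had positive and 11 negative differences. Of 16 tested probe sets of dense core vesicle genes, 0 passed and the median was 0.13. hid-1, needed to form these vesicles, stood at 0.59 ± 0.26 and rose by 0.84 without mutant array 3 (limma adjusted p = 0.0298). Without mutant array 2 it stood at 0.38 (limma adjusted p = 0.545). rund-1 stood at -0.40 ± 0.30 (limma adjusted p = 0.503), and 13 of the 16 vesicle differences were positive and 3 negative.

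Most peptide receptors were too dim to test. Of the receptor probe sets 23 passed the signal filter, or 21.3%, against 73% of member probe sets and 60% of all. Of these 23, 0 passed the adjusted threshold, 1 was higher at an unadjusted p under 0.05, and the median difference was 0.28. That one was pdfr-1, the receptor for PDF peptides, at 144.2, 185.8 and 217.1 in wild-type and 260.7, 264.5 and 415.8 in the mutant (0.77 ± 0.28 SE; limma adjusted p = 0.205). pdf-1, which encodes a ligand of this receptor, stood at 0.26 ± 0.21. sprr-2, a sex peptide receptor-related gene, stood at -0.56 ± 0.30.

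The 24 member probe sets below the signal filter represented 21 genes with no tested probe set and a further probe set each of flp-15, nlp-6 and nlp-16. Their highest single value was 108.6, for nlp-64 on mutant array 3. nlp-64 read 98.3, 97.3 and 97.2 in wild-type and 47.7, 14.5 and 108.6 in the mutant. nlp-91 showed the same split, at 89.7, 56.0 and 99.9 against 22.7, 12 and 86.9. In both, mutant array 3 lay within or just above the wild-type values and the other mutant arrays below them. Most of the other untested probe sets did not show this split. The untested flp genes were flp-23, flp-27 and flp-32. The other untested nlp genes, beside nlp-14, nlp-22 and nlp-32 described above, were nlp-2, nlp-5, nlp-23, nlp-39, nlp-45, nlp-52, nlp-53, nlp-57, nlp-60, nlp-62, nlp-67, nlp-68 and nlp-90. flp-23 read 1.2 to 6.2 on 5 arrays and 24.2 on mutant array 2. At this signal MAS5 values scatter widely, and no difference is read from them.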

How the data were processed

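The authors deposited 1 intensity per probe set and array, on a linear scale. The submitters' processing notes name MAS5 and Affymetrix Expression Console, without versions. Every array had the same trimmed mean, 500.2, after 2% of values were dropped at each end. No detection calls were used here. The log2 of each signal was used as is. Probe sets were tested where the mean log2 signal reached the 40th percentile of the 22548 that were not array controls. Genotypes were compared over all 13529 with limma 3.58.1 in R 4.3.3 (linear model on genotype, empirical Bayes with intensity trend, two-sided, Benjamini-Hochberg adjustment, threshold 0.05), and the fit was tested on simulated data. Intervals are 95% intervals of single probe sets, not adjusted for the number of probe sets. The number of arrays limits the precision. The labels call the replicates biological and do not say what they were drawn from.

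The platform annotation named the probe sets, and all 78 member symbols were found in a RefSeq table of WBcel235 genes, which also gave the gene order. Where a gene had several probe sets, the brightest stands for it. Members and lists were chosen with earlier results of these data known. The rule for named genes took zip-3, members past the adjusted threshold, up to 10 non-overlapping members in each direction by the size of the moderated statistic, 17 members whatever their values, and up to 4 genes of each other list with egl-3 and egl-21. The alternatives were quantile normalization, median centring, adding 16 before log2, omitting the filter or raising it to the 60th percentile, fits without the trend or with robust priors, array weights, a replicate block, each array left out in turn, dropping probe sets with shared-sequence suffixes, and gene averages. A threshold of 0.1 was added after seeing the data. Same-numbered arrays were not treated as pairs in the main fit. Their deviations from the group means correlated at 0.02, 0.05 and -0.16. For differently numbered arrays of the 2 genotypes the values ran from -0.3 to 0.25. With 3 arrays per genotype, these correlations cannot decide whether the samples were paired.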

Additional observations from a re-analysis of the deposited data

How the results depend on the processing

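The count of 0 members past the adjusted threshold held under 16 of 18 alternatives, including the added threshold of 0.1. It was 18, with 13 higher and 5 lower, under array weights, and leaving out single arrays gave 0 to 2. Array weights gave mutant array 1 a weight of 5.89 and mutant arrays 2 and 3 weights of 0.45 and 0.27, so that fit rests mostly on 1 mutant array. It called 4738 of all probe sets, against 18 in the main analysis, 40 with an offset of 16, 0 with the replicate block, 0 with probe sets of a gene averaged (where fewer features were tested), and 0 to 2167 without single arrays, the last without mutant array 3. The 8 members at an unadjusted p under 0.05 became 25 under array weights, 5 with a filter at the 60th percentile (where 38 members were tested), 3 with the replicate block and 1 to 10 without single arrays, the lowest without mutant array 1. The labels do not say whether same-numbered arrays were handled together, and the block changed no call of a member. The median difference of members lay between -0.03 and 0.20 over 17 alternatives. Of 875 single-gene values, 30 passed the threshold where the main value did not, 24 under array weights and 6 without mutant array 3, and 29 changed sign, none of them past the threshold. Sign changes under array weights were flp-2 at -0.05, flp-10 at 0.02, flp-14 at -0.16, nlp-24 at -0.16, snet-1 at -0.12 and nlp-33 at -0.18, and with probe sets averaged flp-1 at 0.10. Without single arrays flp-1 ranged from -0.58 to 0.27, flp-2 from -0.18 to 0.22, flp-3 from -0.26 to 0.43, flp-8 from -0.01 to 0.30, flp-13 from -0.74 to 0.10, flp-14 from -0.03 to 0.29, flp-19 from -0.77 to 0.07, nlp-18 from -0.64 to 0.01, nlp-24 from -0.18 to 1.23, nlp-26 from -0.56 to 0.21, nlp-33 from -0.23 to 0.41 and snet-1 from -0.19 to 0.22. The cause of these changes was not tested. Dim probe sets are noisy in MAS5, and no background level was used to set a detection limit.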
